A study of Mus musculus with 4 samples.

Results

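A set of 10 genes of glycolysis and lactate formation was followed through the crypt cells of mice with and without epithelial *Slc7a5*, which encodes a transporter of large neutral amino acids. The 10 genes, of 27998 counted, were chosen by name: the glucose transporter *Slc2a1*, the enzymes *Hk2*, *Pfkl*, *Aldoa*, *Gapdh*, *Pgk1*, *Pgam1*, *Eno1* and *Pkm*, and the lactate dehydrogenase subunit *Ldha*. All 10 had UMIs in every library and passed the filter on low counts in each comparison. Live EpCAM-positive, CD45-negative cells from small intestinal crypts of 8-week-old mice were sequenced with the 10x Genomics 3′ kit, in 4 libraries, and what was counted were transcripts told apart by their unique molecular identifiers (UMIs). In the libraries labelled slc7a5 IEC-KO (n = 2), *Slc7a5* with a floxed exon on both alleles was deleted by Cre under the villin promoter. The paper describes that promoter as specific to intestinal epithelial cells. The libraries labelled slc7a5 fl/fl (n = 2) came from mice with the floxed alleles and an intact gene. The records name 4 mice but not how they were divided among the libraries, so the p values below measure the spread between these libraries, which may be in part technical.

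Glycolysis breaks glucose down to pyruvate in the cytosol, and lactate dehydrogenase turns pyruvate and NADH into lactate and NAD+, which lets the pathway run without mitochondrial respiration. In the crypt, Paneth cells, which secrete alpha-defensins (the *Defa* genes) and lysozyme, lie between the *Lgr5*-positive stem cells and are thought to supply them with lactate. Transit amplifying (TA) cells are the dividing progeny of the stem cells, and goblet cells and enterocytes are differentiated cells of the secretory and absorptive lineages.

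Paneth cells were taken as the cells with at least 30% of their UMIs in *Defa* genes: 2102 and 2007 cells in the fl/fl libraries and 2830 and 3122 in the IEC-KO libraries, 10061 of 26498 in all. The 14551 cells under 20% were clustered and named from markers, and the 1886 cells in between entered no class. Clusters under 20% that carried Paneth markers held 46 and 28 fl/fl cells against 1397 and 1151 IEC-KO cells, and clusters left unnamed held 134 and 88 against 1418 and 1462. Neither entered the Paneth class, so the limits on the *Defa* share left out more Paneth-marker cells from the IEC-KO libraries than from the fl/fl libraries. Goblet-like cells numbered 520 and 397 against 1749 and 1535, TA-like cells 365 and 288 against 766 and 747, stem-like cells 162 and 143 against 278 and 279, and enterocyte-like cells 192 and 151 against 455 and 379. *Lgr5*-positive cells, those of the TA-like and stem-like clusters with an *Lgr5* UMI, numbered 43 and 49 against 57 and 55. The fl/fl goblet-like cells lay mostly in 1 cluster (432 and 339 cells), and the IEC-KO goblet-like cells mostly in 3, of which one (372 and 393 cells) held no fl/fl cell. When clustering used all variable genes, *Defa* genes included, one goblet-like cluster held 4 and 1 fl/fl cells and another held none. A cluster named for Paneth markers then held 631 and 459 fl/fl cells against 4 and 4 IEC-KO cells. It shared the leading genes *C2cd4a*, *Gm15292* and *Sval1* with the main fl/fl goblet-like cluster. The goblet-like name of fl/fl cells thus depended on the genes used for clustering.

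Several properties of the libraries moved with genotype and touch every comparison below. The median UMI count of a Paneth cell was 45862 and 52128 in the fl/fl libraries and 12548.5 and 18370 in the IEC-KO libraries, and *Defa* genes took 56.2% and 58.7% against 47.0% and 48.6% of the UMIs of the class. In Paneth cells, the summed level of 10 dissociation stress genes was 68.8 and 64.1 against 134 and 134 CPM (UMIs of the genes per 1000000 UMIs). That of 17 goblet markers was 47163 and 42281 against 60494 and 64082 CPM, with none of either list at 0. On this scale the median gene in Paneth cells was higher in IEC-KO as well (log2 fold change 0.70). Of UMIs outside *Defa* genes, the goblet markers took 10.8% and 10.2% against 11.4% and 12.5%. There, 9 Paneth markers took 18.5% and 17.8% against 13.3% and 11.1%. The classes named for tuft, enteroendocrine, enterocyte, stem, TA and goblet markers carried 3.55% to 8.09% of their UMIs in *Defa* genes, and the clusters under 20% with Paneth markers 15.5% and 16.05% against 10.8% and 11.9%. The part of these differences in the results was not tested. *Slc7a5* itself had 140 and 128 UMIs in the fl/fl libraries and 350 and 615 in the IEC-KO libraries, over all cells. As 3′ counting reads the end of the transcript and not the deleted exon, this count is no check of the labels.

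The members stand in the order of the pathway. *Slc2a1* (chr4:119108711-119137983 of GRCm38) encodes GLUT1, the carrier that lets glucose into the cell. *Hk2* (chr6:82725025-82774454) encodes hexokinase 2, which traps glucose by phosphorylation, and *Pfkl* (chr10:77986947-78010083) the liver type subunit of phosphofructokinase, the committed step. *Aldoa* (chr7:126795234-126800751) encodes the aldolase that splits the sugar, and *Gapdh* (chr6:125161715-125166467) the dehydrogenase that makes NADH. *Pgk1* (chrX:106187100-106203699) and *Pkm* (chr9:59656368-59679375) encode the kinases that form ATP, *Pgam1* (chr19:41911923-41918660) and *Eno1* (chr4:150236721-150248879) the mutase and the enolase between them, and *Ldha* (chr7:46841475-46855627) the lactate dehydrogenase A subunit. Near copies exist for several of them. *Eno1b* had 88 to 161 UMIs per library and *Pgk1-rs7* 37 to 54, and the levels of *Eno1* and *Pgk1* are less certain for that. Reads that fit both a gene and its copy may be missing from the count of the gene, by a number that the UMIs of the copy do not give.

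The promoters of the genes with the largest rises and the largest fall in Paneth cells, *Hk2*, *Pfkl* and *Ldha*, are printed to show how they differ in ACGTG. This is 1 form of the core, A or G and then CGTG, of the element that hypoxia-inducible factors bind. It is marked in capitals on either strand (CACGT on the strand shown). They are RefSeq sequences of GRCm38.p6, from 250 bases before to 50 after the transcript start, 5′ to 3′ on the gene's strand, at chr6:82774405-82774704 (minus strand), chr10:78009758-78010057 (minus strand) and chr7:46845554-46845853 (plus strand).
Hk2: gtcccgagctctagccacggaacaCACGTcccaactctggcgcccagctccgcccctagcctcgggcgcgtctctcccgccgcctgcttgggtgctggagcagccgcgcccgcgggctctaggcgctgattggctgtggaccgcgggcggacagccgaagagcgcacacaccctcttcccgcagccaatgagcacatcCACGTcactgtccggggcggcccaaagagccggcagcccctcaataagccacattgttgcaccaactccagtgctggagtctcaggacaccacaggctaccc
Pfkl: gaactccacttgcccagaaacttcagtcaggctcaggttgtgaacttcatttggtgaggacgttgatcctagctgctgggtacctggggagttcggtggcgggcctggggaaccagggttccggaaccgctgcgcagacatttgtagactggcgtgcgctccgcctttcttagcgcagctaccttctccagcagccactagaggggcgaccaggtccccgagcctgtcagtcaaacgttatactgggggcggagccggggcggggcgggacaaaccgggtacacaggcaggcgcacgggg
Ldha: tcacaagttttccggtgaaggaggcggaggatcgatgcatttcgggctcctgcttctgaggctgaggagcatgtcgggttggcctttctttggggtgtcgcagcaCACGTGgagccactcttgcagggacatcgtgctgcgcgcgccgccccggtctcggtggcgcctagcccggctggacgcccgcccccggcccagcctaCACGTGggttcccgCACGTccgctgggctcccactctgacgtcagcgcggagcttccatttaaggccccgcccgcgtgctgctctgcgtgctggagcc
The *Hk2* promoter held 2 matches to ACGTG, that of *Pfkl* none, and that of *Ldha* 5, of which 4 are both strands of the 2 copies of CACGTG. The other form of the core, GCGTG, was not marked or counted, and the letters printed for *Pfkl* and *Ldha* hold it. The letters ACGTG were in 6 of the 10 members' promoters (*Slc2a1*, *Hk2*, *Gapdh*, *Pgk1*, *Pgam1* and *Ldha*) and in 19.6% of the 32851 promoters of the table. CACGTG, which contains ACGTG, was in 1 of 10, that of *Ldha*, and in 7.15% of all. For each member only the listed promoter nearest the gene start was read, where *Aldoa* and *Eno1* have 3 and *Pkm* and *Ldha* 2. The shares of all promoters count every full-length entry, so the members' counts and these shares are not on the same footing. A match is a description of the letters and not a site of binding.

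The first comparison asked how the 10 genes differed between genotypes in Paneth cells. *Hk2* and *Pfkl*, the genes of the first and the committed phosphorylation, were higher in the IEC-KO libraries. *Ldha*, *Pkm* and *Pgam1* of the later steps were lower, and the other 5, *Eno1* of those steps included, did not pass the test. These 5 calls of 10 stand beside 42.1% of the 12696 genes tested that were called in the same comparison (21.2% higher, 21.0% lower), so their number is near the background. Levels are CPM after TMM scaling, which sets the bulk of genes equal between libraries, and tests are edgeR's quasi-likelihood test with Benjamini-Hochberg adjustment over all genes tested.

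*Hk2* was at 17.1 and 15.6 CPM in the fl/fl libraries and at 32.8 and 48.2 in the IEC-KO libraries. The IEC-KO libraries lay above both others but differed among themselves, and the log2 fold change was 1.32 (SE 0.12, adjusted p = 2.09e-07). *Pfkl* was at 5.69 and 5.25 CPM against 12.0 and 10.0, with a log2 fold change of 1.00 (SE 0.09, adjusted p = 2.66e-07). For *Pfkl* the libraries of a genotype lay close together and the genotypes far apart.

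*Ldha* was at 192 and 190 CPM in the fl/fl libraries and at 131 and 126 in the IEC-KO libraries, a log2 fold change of -0.57 (SE 0.07, adjusted p = 5.41e-06). *Pkm* was at 63.7 and 66.3 against 49.6 and 50.7 CPM, a log2 fold change of -0.37 (SE 0.06, adjusted p = 1.91e-04). *Pgam1* was at 35.3 and 36.7 against 27.9 and 29.2 CPM, a log2 fold change of -0.33 (SE 0.07, adjusted p = 6.36e-04). In all 3 the genotypes did not overlap, and the steps between them were several times the gap between libraries of a genotype.

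The middle of the pathway differed little. *Aldoa* was at 121 and 123 CPM against 131 and 131 (log2 fold change 0.10, SE 0.07), and *Gapdh* at 128 and 140 against 152 and 149 (0.16, SE 0.07, adjusted p = 0.083). *Eno1* was at 20.2 and 18.7 against 22.6 and 19.0 CPM (0.09, SE 0.08). *Slc2a1*, at 3.21 and 2.39 against 3.22 and 2.95 CPM, and *Pgk1*, at 3.76 and 2.55 against 3.18 and 2.99 CPM, overlapped between genotypes, with log2 fold changes of 0.13 (SE 0.14) and -0.04 (SE 0.15). Their SEs allow changes of either sign.

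**Figure D1:**
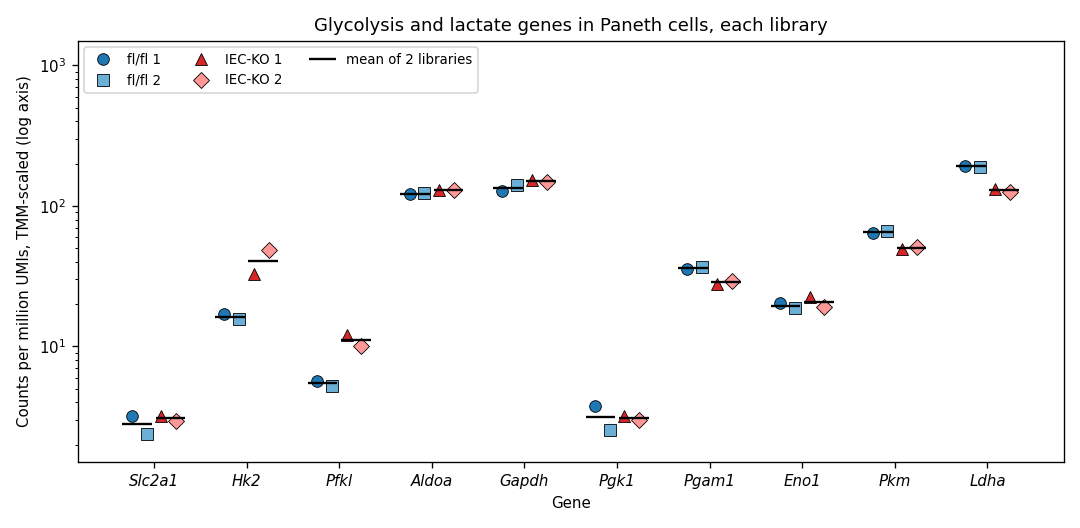
TMM-scaled CPM (log axis) of the 10 genes in the Paneth cells of each library, points for libraries and lines for the mean of the 2 libraries of a genotype. The IEC-KO points sit above the fl/fl points for *Hk2* and *Pfkl* and below them for *Pgam1*, *Pkm* and *Ldha*.

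The direction of the 3 falls was relative to other genes. Per UMI of the library, with no TMM scaling, the median log2 fold change over all genes in Paneth cells was 0.70, and *Ldha*, *Pkm* and *Pgam1* were at 0.13, 0.33 and 0.37, all below that median and above 0, while *Hk2* and *Pfkl* were at 2.02 and 1.70. On that scale 95.7% of the calls were higher in IEC-KO, against 50.2% after TMM. *Hk2* and *Pfkl* were thus higher on both scales, and *Ldha*, *Pkm* and *Pgam1* were lower only relative to the typical gene. Whether a lower sum came from less RNA of a gene per cell or from fewer cells with it was not tested.

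Together the 10 genes took 0.0480% and 0.0456% of the UMIs of fl/fl Paneth cells and 0.0709% and 0.0736% of those of IEC-KO Paneth cells (95% exact binomial half-widths at most 0.000825 percentage points, counting error only). The genotypes did not overlap, and the ratio of means was 1.54, with a two-sided exact permutation p of 0.333, the smallest that 2 against 2 libraries allow. Over UMIs outside *Defa* genes the shares were 0.109% and 0.111% against 0.134% and 0.143%. In goblet-like cells the 10 genes took 0.183% in both fl/fl libraries against 0.183% and 0.186%, and in TA-like cells 0.211% and 0.220% against 0.187% and 0.185%. These shares are per UMI with no TMM scaling. On that scale the log2 ratio of the set was 0.63 in Paneth cells, beside a median of 0.70 over all genes, so the set rose by no more than the typical gene there.

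Because the Paneth class was cut by the *Defa* share, which differed between genotypes, the genes were also read along it, as CPM of the UMIs outside *Defa* genes. This scale has no TMM scaling, and the median over all genes was not computed on it. *Hk2* fell from the 10% to 20% bin to the 50% to 60% bin in every library, and at 50% to 60% it was at 28.6 and 26.2 in the fl/fl libraries against 65.3 and 113 in the IEC-KO libraries. *Pfkl* in the same cells was at 9.87 and 9.23 against 23.8 and 27.2. *Ldha* was at 347 and 333 against 326 and 332 there, and its genotype gap was widest under 10%, at 824 and 832 against 609 and 559. The bin under 10% (1270 and 975 against 5330 and 4714 cells) pools cells of several classes. The make-up of the cells under 20%, given above, differed between genotypes, and its part in the gap was not tested. Just inside the 30% limit, at 30% to 40%, *Ldha* was at 365 and 365 against 294 and 301, and just outside it, at 20% to 30%, at 407 and 419 against 325 and 320. In the cells richest in *Defa* UMIs, at 60% to 70% (325 and 825 fl/fl and 127 and 165 IEC-KO cells), *Ldha* was at 397 and 373 against 389 and 374, *Hk2* at 33.9 and 29.4 against 80.8 and 115, and *Pfkl* at 12.7 and 10.2 against 34.5 and 23.0. The genotypes thus lay apart for *Hk2* and *Pfkl* in cells of like *Defa* share above 50%, and overlapped for *Ldha* at 60% to 70%. *Pkm* and *Pgam1*, lower after TMM, were higher on this scale in both IEC-KO libraries above 50%. With no split by *Defa* share, *Pkm* was at 118 and 122 in all fl/fl Paneth cells on this scale. In the 2496 and 2746 IEC-KO Paneth cells without *Try5* UMIs (a trypsin gene, see the last paragraph) it was at 116 and 128. *Pgam1* was at 65.3 and 67.5 against 65.5 and 72.7 there, and *Ldha* at 356 and 350 against 308 and 318. Differences at like *Defa* share were not tested relative to the typical gene. At 50% to 60% *Pkm* was at 115 and 117 against 122 and 137, and *Pgam1* at 63.5 and 64.5 against 70.5 and 78.1. In the mixed bin under 10% both were lower. *Pkm* was at 228 and 221 against 162 and 161 and *Pgam1* at 135 and 146 against 94.4 and 98.5. The bins between were mixed.

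The clusters under 20% with Paneth markers were read on their own, in 1 scaling over all classes. *Hk2* was there at 124 and 128 CPM in the few fl/fl cells and at 125 and 179 in the IEC-KO cells, and the genotypes overlapped. *Ldha* was at 362 and 385 against 338 and 318 CPM. With these clusters and the cells at 20% to 30% added to the Paneth class (a choice made once the values were known), the log2 fold change was 1.46 for *Hk2*, 0.96 for *Pfkl*, -0.56 for *Ldha*, -0.44 for *Pkm* and -0.43 for *Pgam1*, all past the threshold in edgeR, and *Gapdh* passed as well (0.24, adjusted p = 0.0117).

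**Figure D2:**
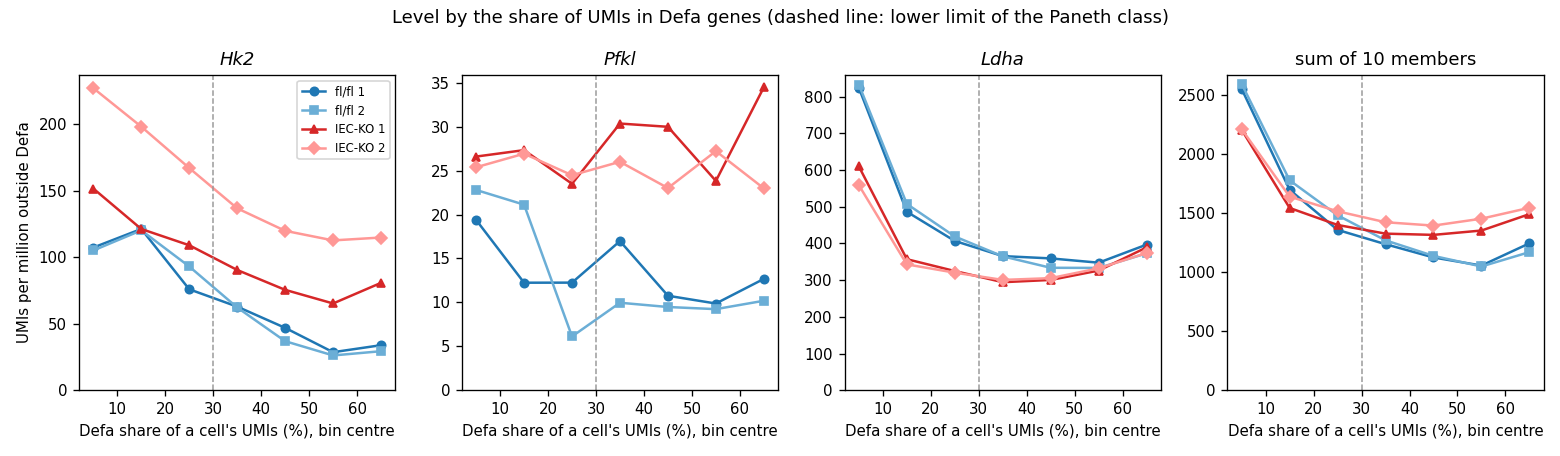
CPM of the UMIs outside *Defa* genes (vertical axes from 0) for *Hk2*, *Pfkl*, *Ldha* and the sum of the 10 genes, in cells binned by the *Defa* share of their UMIs (percent, bins of 10 points), 1 line per library. At 50% to 60% *Hk2* is at 26.2 and 28.6 in fl/fl and at 65.3 and 113 in IEC-KO, and in the last bin the 4 *Ldha* points lie between 373 and 397.

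Outside Paneth cells, *Hk2* was the member higher in IEC-KO in each of the other 4 classes tested. In TA-like cells *Hk2* was at 98.3 and 96.6 CPM against 124 and 186 (log2 fold change 0.68, SE 0.12, adjusted p = 1.75e-04), in goblet-like cells at 139 and 137 against 140 and 210 (0.35, SE 0.09, adjusted p = 0.00172), in enterocyte-like cells at 46.7 and 40.2 against 56.8 and 99.9 (0.86, SE 0.19, adjusted p = 0.00842) and in stem-like cells at 67.4 and 65.3 against 86.7 and 122 (0.68, SE 0.14, adjusted p = 0.00338). In all of them, and in Paneth cells, IEC-KO replicate 2 was the highest library. Without that replicate the call was lost in goblet-like, enterocyte-like and stem-like cells and kept in Paneth and TA-like cells, where 2 fl/fl libraries and a lone IEC-KO library, assumed to vary like them, remained. With DESeq2 in place of edgeR, *Hk2* was called in Paneth cells only of these 5 classes. The clusters left unnamed were not tested. In 1 scaling over all classes, *Hk2* had a mean there of 84.0 CPM in fl/fl and 227 (SD 61.5) in IEC-KO libraries, beside 41.1 and 100 in Paneth cells. *Pfkl* was there at 14.5 and 24.9, *Ldha* at 574 and 453, *Pgam1* at 97.2 and 69.3 and *Pkm* at 144 and 118. Of these clusters, 1 held 3 and 1 fl/fl cells against 721 and 830 IEC-KO cells.

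In TA-like cells 5 members were lower in the IEC-KO libraries and 1 was higher, beside 9.93% of 9984 genes called (5.40% higher, 4.53% lower). *Ldha* was at 695 and 727 CPM against 580 and 529 (log2 fold change -0.36, SE 0.07), *Pkm* at 183 and 193 against 151 and 147 (-0.33, SE 0.08), *Pgam1* at 119 and 132 against 95.6 and 96.7 (-0.38, SE 0.08) and *Eno1* at 108 and 103 against 73.9 and 79.1 (-0.46, SE 0.09), with adjusted p of edgeR from 4.60e-04 to 0.00422. Those 4 genes were lower in both IEC-KO libraries than in either fl/fl library. *Pgk1* was at 30.6 and 13.3 CPM against 14.2 and 10.1 (-0.92, SE 0.24, adjusted p = 0.00986), overlapped between genotypes and lost its call without fl/fl replicate 1 and without either IEC-KO replicate. Without fl/fl replicate 2, *Ldha*, *Pgam1* and *Pkm* lost theirs, and the number of lower members fell to 2. It was also 2 (*Ldha* and *Eno1*) with DESeq2.

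Goblet-like cells had 2 members higher and 1 lower, beside 19.2% of 10063 genes called (10.1% higher, 9.07% lower). *Pfkl* was at 13.2 and 16.2 CPM in fl/fl against 26.7 and 23.5 in IEC-KO goblet-like cells (log2 fold change 0.78, SE 0.14, adjusted p = 3.94e-06), without overlap. *Ldha* was at 530 and 517 against 458 and 416 CPM (-0.26, SE 0.07, adjusted p = 0.00423), also without overlap, and lost its call when either fl/fl library was left out. The clusters that made up the class differed between genotypes, as given above, and with a coarser clustering none of the 3 was called. Clustering on all variable genes left too few fl/fl goblet-like cells for a test.

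In enterocyte-like and stem-like cells *Hk2* alone passed, beside 1.94% of 8395 genes called in the former (1.22% higher, 0.727% lower) and 1.79% of 8471 in the latter (1.25% higher, 0.543% lower). *Ldha* in enterocyte-like cells was at 1524 and 1532 CPM against 1507 and 1394 (log2 fold change -0.08, SE 0.09), and in stem-like cells at 610 and 613 against 612 and 557 (-0.07, SE 0.09). *Pfkl* was at 24.5 and 27.4 against 24.7 and 23.6 CPM in enterocyte-like cells and at 26.4 and 24.7 against 20.1 and 25.7 in stem-like cells. Both genes overlapped or nearly touched between genotypes in these 2 classes, which had the fewest cells.

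**Figure D3:**
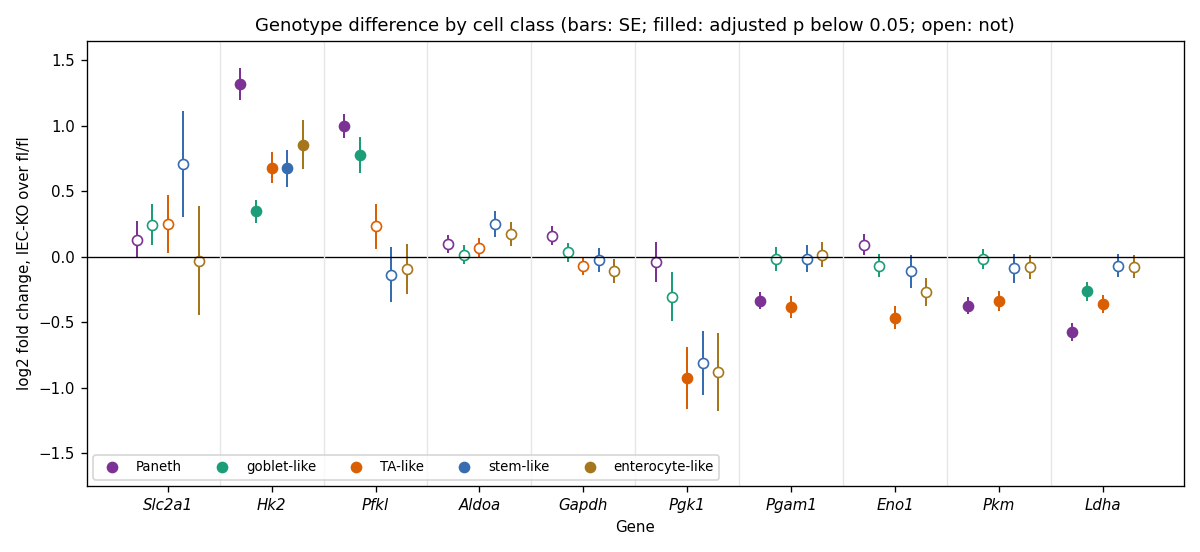
Log2 fold change (IEC-KO over fl/fl, after TMM scaling within each class) of the 10 genes in 5 cell classes, with its standard error as bars and filled points where the adjusted p is below 0.05. *Hk2* is above 0 and filled in all 5 classes, from 0.35 in goblet-like to 1.32 in Paneth cells, and *Ldha* is filled and below 0 in Paneth, goblet-like and TA-like cells.

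Whether a genotype difference in Paneth cells was unlike that in another class was tested directly, with both classes of each library in 1 model. Against goblet-like cells, 4 members differed, beside 15.4% of 12010 genes (of which 6.35% downward): the effect in Paneth cells minus that in goblet-like cells was 0.97 for *Hk2* and -0.36, -0.32 and -0.31 for *Pkm*, *Pgam1* and *Ldha*. The clusters that made up the goblet-like class differed between genotypes, as given above. Against TA-like cells, 6 differed, beside 18.8% of 12199 genes (9.40% upward, 9.41% downward): 0.62 for *Hk2*, 0.75 for *Pfkl*, 0.85 for *Pgk1*, 0.53 for *Eno1*, 0.22 for *Gapdh* and -0.23 for *Ldha*. The rise of *Hk2* was thus larger in Paneth cells than in either class, relative to the bulk of genes in each.

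The second comparison set Paneth cells against other classes in the same library, both genotypes together. The question behind it is whether Paneth cells, as suppliers of lactate, held more transcripts of the pathway than the stem cells beside them, and the 10 genes did not all lie on 1 side. The stem-like class was 1 cluster that counted 6 of 13 stem markers and had *Clca3b* and *Cps1* among its leading genes, so it may hold other cells. Against stem-like cells, *Aldoa* and *Slc2a1* were higher in Paneth cells, *Pgk1*, *Pgam1* and *Eno1* were lower, and 5 did not pass, beside 54.0% of 12580 genes called (28.3% higher, 25.7% lower). The log2 ratio of *Aldoa*, Paneth over stem-like, was 0.95 and 0.84 in the fl/fl and 0.69 and 0.70 in the IEC-KO libraries (pooled 0.79, SE 0.09, adjusted p = 9.85e-06). That of *Slc2a1* was 1.32, 0.68, 0.67 and 0.19 (0.64, SE 0.21, adjusted p = 0.0197), from 56 UMIs in all the stem-like cells, and its call was lost without fl/fl replicate 1 and with DESeq2.

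*Ldha* did not differ between Paneth and stem-like cells over both genotypes (log2 ratio -0.14, SE 0.12, adjusted p = 0.345). Its ratio was 0.14 and 0.13 in the fl/fl libraries and -0.46 and -0.37 in the IEC-KO libraries. *Hk2* had the opposite pattern, at -0.18 and -0.25 in fl/fl and 0.36 and 0.43 in IEC-KO libraries, and *Pfkl* was at -0.42 and -0.42 against 1.03 and 0.41. For these 3 genes the sign of the ratio differed between genotypes in every library, a difference that was not tested for this pair of classes. *Pgam1* was lower in Paneth cells in every library, at -0.45, -0.35, -0.77 and -0.76 (-0.58, SE 0.10, adjusted p = 2.21e-04).

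Against the fewer *Lgr5*-positive cells, *Aldoa* (log2 ratio 0.98, SE 0.13, adjusted p = 5.95e-12) and *Pkm* (0.55, SE 0.14, adjusted p = 2.97e-04) were higher in Paneth cells and *Hk2* (-0.38, SE 0.14, adjusted p = 0.0221) was lower, beside 33.5% of 11740 genes called (18.6% higher, 14.9% lower). *Ldha* was at 0.48 and 0.27 in the fl/fl and -0.30 and 0.03 in the IEC-KO libraries (0.13, SE 0.13, adjusted p = 0.503). *Aldoa* was higher in Paneth than in *Lgr5*-positive cells in 4 of 4 libraries, by 0.70 to 1.16 on the log2 scale. The call of *Hk2* was lost without either fl/fl library.

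Against TA-like cells 1 member, *Aldoa* (log2 ratio 0.54, SE 0.07), was higher and 5 were lower, beside 49.3% of 12199 genes called (24.3% higher, 25.0% lower). *Ldha* was lower in Paneth cells in 4 of 4 libraries, at -0.20 and -0.28 in fl/fl and -0.52 and -0.42 in IEC-KO (-0.36, SE 0.08, adjusted p = 0.00493). *Hk2* was at -0.88 and -0.98 against -0.29 and -0.31 (-0.60, SE 0.12), and *Eno1*, *Pgk1* and *Gapdh* had pooled ratios of -0.52 (SE 0.12), -0.72 (SE 0.19) and -0.34 (SE 0.08). Against goblet-like cells 7 were lower and 2, *Pgam1* (0.50, SE 0.08) and *Pkm* (0.31, SE 0.08), were higher, beside 45.2% of 12010 genes called (21.7% higher, 23.5% lower). The largest gaps there were those of *Hk2* (-1.33, SE 0.17) and *Slc2a1* (-1.12, SE 0.10), in 4 of 4 libraries each. The call of *Pkm* against goblet-like cells was lost without either fl/fl library. The number of members called was near the share of all genes called against stem-like and *Lgr5*-positive cells. It was above the share of all genes for members lower than in goblet-like and in TA-like cells, a difference that was not tested.

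These ratios were relative to the bulk of genes, as TMM sets it. With no TMM scaling, the median log2 ratio over all genes was -1.23 against goblet-like, -1.61 against TA-like and -1.71 against stem-like cells, and every member was lower in Paneth cells per UMI against TA-like, stem-like and *Lgr5*-positive cells. On that scale *Aldoa* was at -0.98 against stem-like cells, above the median gene but below 0.

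**Figure D4:**
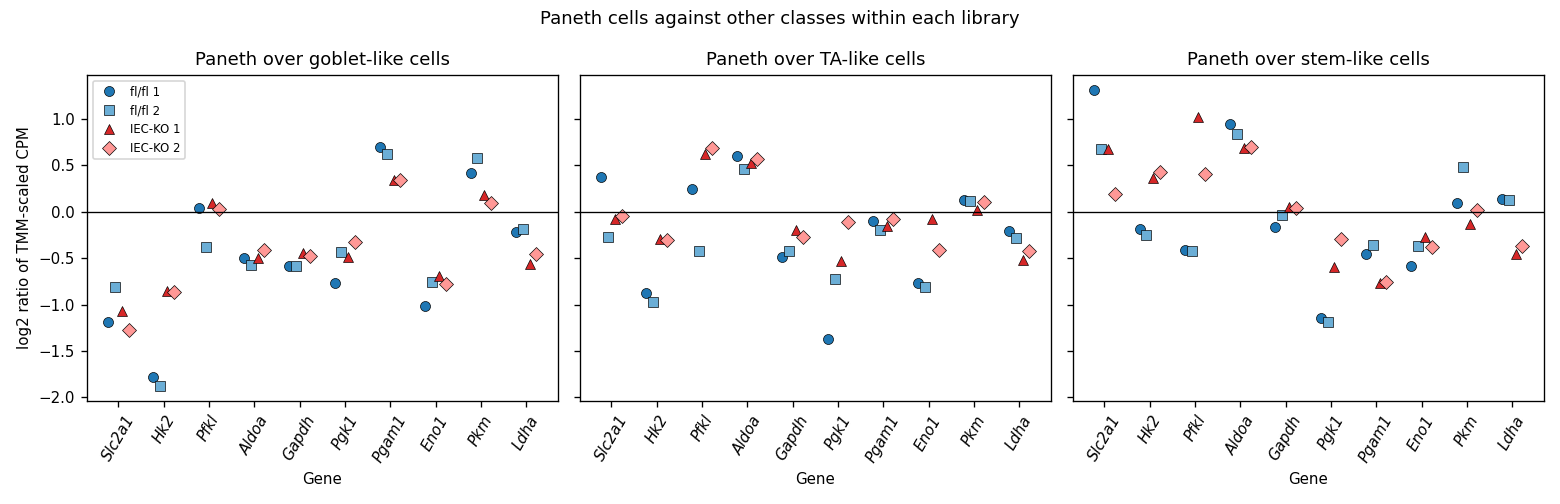
Log2 ratio of TMM-scaled CPM, Paneth cells over goblet-like, TA-like and stem-like cells of the same library, for the 10 genes and 4 libraries. *Aldoa* lies between 0.69 and 0.95 over stem-like cells, and *Ldha* lies above 0 in the fl/fl and below 0 in the IEC-KO libraries there.

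In 1 scaling over all classes, the order of levels set enterocyte-like cells apart. *Ldha* was at 1161 to 1270 CPM in enterocyte-like cells over the 4 libraries, above 423 to 569 in TA-like, 428 to 540 in goblet-like, 395 to 436 in stem-like and 313 to 484 in Paneth cells, and these last 4 classes overlapped with their neighbours. *Gapdh* (951 to 1053 CPM in enterocyte-like cells), *Eno1* (179 to 244), *Pgam1* (218 to 231) and *Pkm* (372 to 399) were also highest there, without overlap with the next class. *Slc2a1*, at 10.2 to 17.8 CPM, and *Hk2*, at 140 to 217 CPM, were highest on average in goblet-like cells. There *Slc2a1* overlapped with no other of these classes, and *Hk2* did with enteroendocrine-like cells (79.0 to 206) and TA-like cells (75.5 to 149). In the unnamed clusters of the IEC-KO libraries *Slc2a1* had a mean of 12.8 CPM, within the goblet-like range. *Hk2* had a mean of 227 CPM there, above its goblet-like mean of 180 in those libraries. *Eno1* was lowest on average in Paneth cells, at 46.9 to 56.2 CPM, without overlap with stem-like cells but overlapping with enteroendocrine-like cells (54.8 to 84.1). *Pfkl* was at 11.8 to 29.9 CPM over these classes, enteroendocrine-like and tuft-like cells included. There TA-like, tuft-like and stem-like cells lay below enterocyte-like cells, stem-like cells lay below enteroendocrine-like cells, and the other pairs of these classes overlapped.

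**Figure D5:**
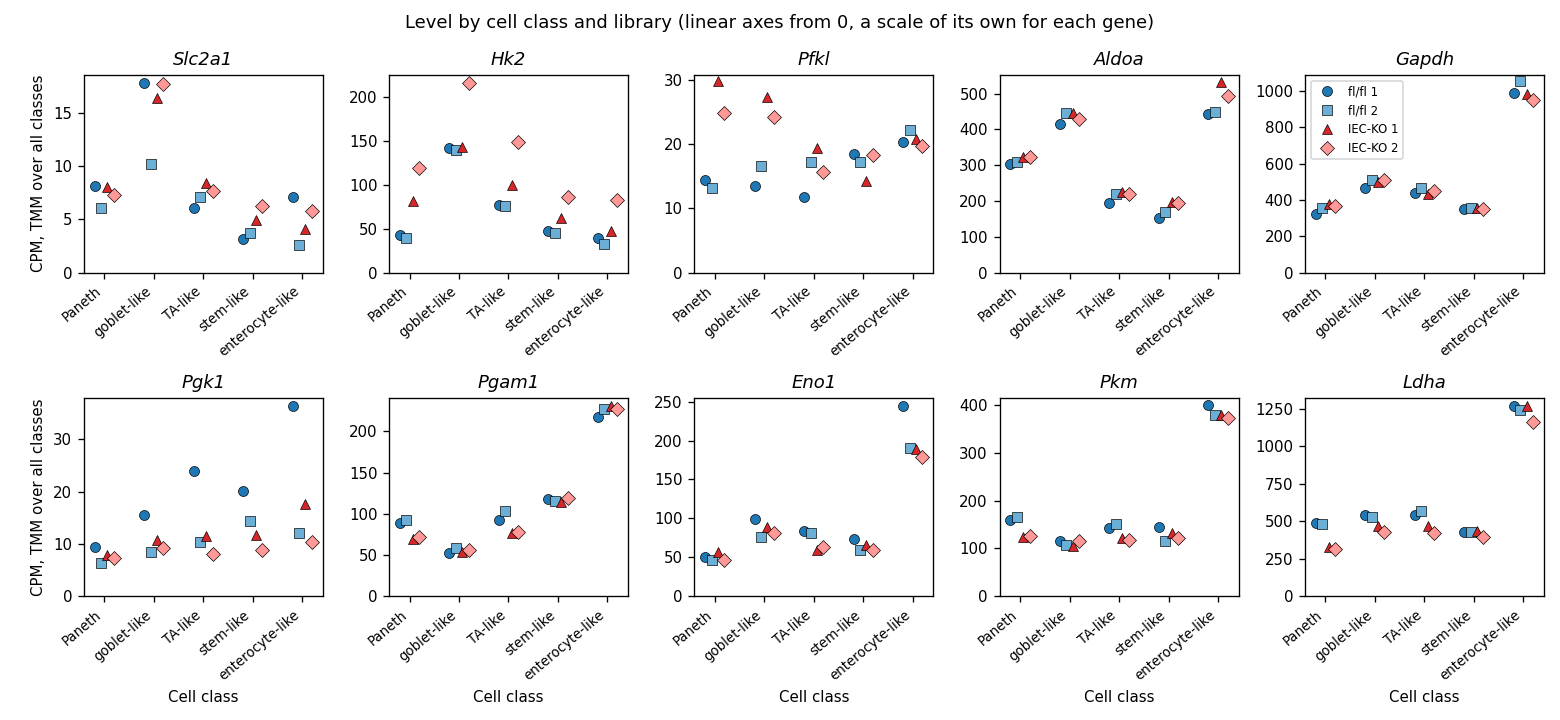
TMM-scaled CPM of the 10 genes by cell class, 1 point per library, on linear axes from 0 that differ between genes. *Gapdh*, *Pgam1*, *Eno1*, *Pkm* and *Ldha* are highest in enterocyte-like cells, and *Slc2a1* and *Hk2* in goblet-like cells.

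Over the 20 sums of 5 classes and 4 libraries, the members fell into a group that varied together and others that did not. *Gapdh*, *Eno1* and *Ldha* had pairwise correlations of log2 CPM from 0.93 to 0.95, whereas *Slc2a1* and *Pgam1* had -0.75 and *Hk2* and *Pgam1* -0.73. The median over the 45 pairs was 0.29, and 14 were negative. The genes outside the set most like the mean of the 10 were *Map2k2* (Pearson r 0.97), *Mkrn1* (0.96), *Ndfip2* (0.95), *Il17rc* (0.95) and *Cldn7* (0.95), of 3535 genes with at least 20 CPM on average. The sums share libraries and differ in cell type, so these values describe likeness only.

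Other genes of the pathway, 58 in lists of isoforms, regulators and neighbouring pathways, moved in both directions in Paneth cells. Of 52 tested, 6 were higher and 21 lower in IEC-KO, with a median log2 fold change of -0.23 beside -0.0024 over all genes and 42.1% of all genes called (21.2% higher, 21.0% lower). The largest rises were those of *Hif1a* (7.86 ± 0.0927 to 18.6 ± 0.167 CPM, SD, n = 2, log2 fold change 1.24, SE 0.07), the oxygen-regulated activator of glycolytic genes, *Slc16a3* (0.631 ± 0.0882 to 1.43 ± 0.0292 CPM, 1.18, SE 0.19), which encodes the lactate exporter MCT4, and *Hk1* (2.47 ± 0.000439 to 5.26 ± 0.488 CPM, 1.10, SE 0.11), another hexokinase. The largest falls were those of *G6pc* (-2.63, SE 0.43), *Slc5a1* (-1.58, SE 0.10) and *Slc2a2* (-1.56, SE 0.18), which encode glucose-6-phosphatase and the sodium-coupled and basolateral glucose carriers of absorptive cells. With no TMM scaling, unlike these falls, the summed level of 17 enterocyte markers in Paneth cells was 1435 to 1517 CPM in fl/fl and 849 to 1017 in IEC-KO libraries. On that scale the median log2 fold change over all genes was 0.70, so the sizes of the 2 falls are not comparable. The part of the markers in the falls of the carriers and *G6pc* was not tested.

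Genes of lactate and pyruvate handling split in the same cells. *Slc16a1*, which encodes the lactate carrier MCT1, did not pass, at 2.76 ± 0.06 against 2.74 ± 0.02 CPM (log2 fold change -0.01, SE 0.12), and *Bsg*, its chaperone, was lower (-0.30, SE 0.07, adjusted p = 0.00365). *Mpc1* of the mitochondrial pyruvate carrier was higher (0.27, SE 0.06, adjusted p = 0.00268) and its partner *Mpc2* did not pass (0.11, SE 0.07). *Ldhb*, the other lactate dehydrogenase subunit, had 61 UMIs in all Paneth cells (-0.21, SE 0.41). The glycolytic enzymes *Tpi1* and *Gpi1* were lower, at -0.29 (SE 0.07) and -0.24 (SE 0.06), and *Pfkp* did not pass (0.06, SE 0.07).

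In goblet-like cells 4 of 42 of these genes were higher and 8 lower, beside 10.1% and 9.07% of all genes. In TA-like cells 3 of 40 were higher and 4 lower (5.40% and 4.53% of all genes), in enterocyte-like cells 1 of 38 and 2 (1.22% and 0.727%), and in stem-like cells none of 32 passed in edgeR, where 2 had an unadjusted p below 0.05. *Hif1a* was higher in goblet-like (1.17, SE 0.12), TA-like (0.46, SE 0.12) and enterocyte-like cells (0.75, SE 0.20), and *Slc16a3* in goblet-like cells (2.97, SE 0.50, from 95 UMIs). *Hk1* was also higher in goblet-like (0.81, SE 0.19) and TA-like cells (1.12, SE 0.36), and *Pdp1*, a pyruvate dehydrogenase phosphatase, in TA-like cells (1.61, SE 0.44). Lower were *Slc5a1* in goblet-like (-0.87, SE 0.20), TA-like (-0.94, SE 0.18) and enterocyte-like cells (-0.61, SE 0.11), *Slc16a1* and *G6pdx* in goblet-like cells (-0.63, SE 0.19, and -0.57, SE 0.18), *Pfkfb4* in TA-like cells (-1.42, SE 0.36) and *Txnip* in enterocyte-like cells (-0.63, SE 0.14).

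Between classes, the lactate carriers lay on opposite sides after TMM scaling. *Slc16a1* was lower in Paneth than in stem-like cells, at 5.09 ± 0.07 against 12.2 ± 1.10 CPM (SD, n = 4, log2 ratio -1.26, SE 0.13), than in *Lgr5*-positive cells (-1.26, SE 0.28) and than in TA-like cells (-0.97, SE 0.10). *Slc16a3* was higher in Paneth than in stem-like cells, at 1.91 ± 0.86 against 0.241 ± 0.170 CPM (2.94, SE 0.51, from 0, 1, 1 and 2 UMIs in the stem-like sums), and than in TA-like cells (1.43, SE 0.29). With no TMM scaling *Slc16a3* was at 0.563 and 0.432 CPM in fl/fl and 1.77 and 1.88 in IEC-KO Paneth cells. In TA-like cells it was at 1.58 and 0.811 against 1.29 and 1.22, so fl/fl Paneth cells lay lower there. In stem-like cells it was at 0 and 0.522 against 0.525 and 0.711. *Slc16a7*, which encodes the carrier MCT2, was higher in Paneth than in stem-like (3.93, SE 0.65), TA-like (1.73, SE 0.28) and goblet-like cells (3.01, SE 0.34). It had 329 UMIs in Paneth cells and 0 in *Lgr5*-positive cells. After TMM scaling that was 2.07 ± 0.82 against 0 CPM (SD, n = 4, edgeR adjusted p = 0.00154). With no TMM scaling the Paneth level was 1.07 CPM. On that scale a count of 0 in *Lgr5*-positive cells allows up to 1.4 CPM, a limit above the Paneth level. *Bsg* was higher in Paneth than in TA-like and stem-like cells (0.51, SE 0.09, and 0.49, SE 0.11), and *Mpc1* was lower than in both (-0.70, SE 0.08, and -0.44, SE 0.10).

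Among the rest of the list, 18 of 49 tested were higher and 13 lower in Paneth than in stem-like cells, 17 of 48 and 8 against TA-like cells, 13 of 47 and 9 against goblet-like cells, and 15 of 47 and 5 against *Lgr5*-positive cells. Of all genes, 54.0%, 49.3%, 45.2% and 33.5% were called in these comparisons, in the same order. The fructose carrier gene *Slc2a5* was higher than in stem-like (2.60, SE 0.27) and TA-like cells (2.03, SE 0.24), and *Fbp1*, a gluconeogenic enzyme, was lower than in stem-like cells (-2.04, SE 0.22) and higher than in goblet-like cells (1.66, SE 0.24). *Myc*, an activator of growth genes, was lower than in stem-like cells (-1.49, SE 0.19), and *Pck1*, another gluconeogenic enzyme, was lower than in goblet-like cells (-1.56, SE 0.12).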

How the data were processed

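The counts are of UMIs from 4 single cell libraries of sorted crypt epithelium (10x Genomics 3′ kit, version 2), 2 per genotype. The authors deposited raw UMI counts per gene and cell barcode after cell calling with Cell Ranger; the submitters' processing notes name version 2.1.1 and the mm10 genome, and the counts were used as deposited, with no normalization before summing. Library totals were 87922473 to 127094508 UMIs, and at most 132 barcodes were shared between 2 libraries. No barcode held fewer than 8909 or 9670 UMIs in the fl/fl libraries, against 3843 and 5858 in the IEC-KO libraries.

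The members, gene lists, markers and tests were chosen with earlier results of these data known. *Defa* genes were taken by GENCODE M21 names (22 genes, against 13 by the symbols in the files); 27645 of 27998 gene IDs matched. Cells under 20% *Defa* UMIs were scaled to 10000 UMIs and clustered (2000 variable genes, 30 components, 20 neighbours, Leiden resolution 1, leidenalg 0.10.2), without the members, the lists, *Defa* genes and 871 genes of the study's own lists. The class with most markers among the 10 leading genes of a cluster was tried first. Its name was given when at least 3 and 25% of its markers were in at least 25% of the cells at 1.5 times the level elsewhere. Failing that, the class with the largest share of such markers was tried by the same limits. It also had to have no fewer markers among the leading genes than any other class, in cells not far below the median UMI count. Other clusters were left unnamed. That naming rule was set after the clusters were seen, so shares and values of a class may differ from those under the study's own names. Doublets were kept, and an alternative left out 83 to 801 cells per library.

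UMIs were summed per library and class (at least 10 cells) and tested in edgeR 4.0.16 (TMM, filterByExpr, quasi-likelihood F test), genotype by library sums and classes with library as a block; calls are at an adjusted p below 0.05 over all genes tested. The fits were also run on simulated counts, whose sums shared a mean profile within a comparison apart from set changes. Such counts have no difference in make-up between classes, so that run could not check the TMM scaling. Alternatives were other scalings, filters and class limits, DESeq2 1.42.0, cells thinned to 3500 UMIs, 1 lower limit of 9670 UMIs, other clusterings, blocks and each library left out. The stem-like comparisons, the *Defa* genes by file symbols and the widened Paneth class were added after seeing the data. Named genes were the 10 members, the fixed transport and enzyme genes, and per comparison the 3 largest rises and falls of the pathway list past the threshold without overlap of libraries. One gene that this rule names is not reported here. Replicate numbers did not pair the libraries (see the values with the alternatives).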

Additional observations from a re-analysis of the deposited data

Results flagged for a closer look

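The genotype effect in Paneth cells differed from that in another class, by edgeR's test of the difference itself, for 10 pairs of member and class. Against goblet-like cells the difference (log2 fold change in Paneth cells minus that in goblet-like cells) was 0.97 for *Hk2* (SE 0.07, adjusted p = 7.25e-19), -0.36 for *Pkm* (SE 0.07, adjusted p = 1.75e-04), -0.31 for *Ldha* (SE 0.07, adjusted p = 2.42e-04) and -0.32 for *Pgam1* (SE 0.09, adjusted p = 0.00746). Over the alternatives other than library size only (no TMM scaling), *Hk2* ran from 0.91 to 1.11 and *Pkm* from -0.44 to -0.28. *Ldha* ran from -0.39 to -0.04 and *Pgam1* from -0.42 to -0.07.

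Against TA-like cells it was 0.62 for *Hk2* (SE 0.09, adjusted p = 1.62e-11), 0.75 for *Pfkl* (SE 0.17, adjusted p = 1.16e-04), 0.85 for *Pgk1* (SE 0.20, adjusted p = 2.13e-04) and 0.53 for *Eno1* (SE 0.09, adjusted p = 1.91e-07). For *Gapdh* it was 0.22 (SE 0.07, adjusted p = 0.0151) and for *Ldha* -0.23 (SE 0.07, adjusted p = 0.0103). Of these, *Gapdh*, *Ldha* and *Pgk1* against TA-like cells and *Pgam1* against goblet-like cells lost their calls without fl/fl replicate 1, *Pgk1* also without IEC-KO replicate 2, and *Gapdh*, *Pfkl* and *Pkm* (the last against goblet-like cells) without fl/fl replicate 2. With 2 libraries per genotype no group was large enough for a test of single outlying libraries.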

How the results depend on the processing

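Of 945 values of single members under the alternatives, 830 kept their direction and their side of the threshold, 88 lost their call, 7 gained one and 20 changed sign. In Paneth cells by genotype, the 5 calls held under every alternative except library size only, where *Ldha*, *Pkm*, *Pgam1* and *Pgk1* turned to 0.13, 0.33, 0.37 and 0.66 and the counts became 9 higher and 0 lower. The uncalled *Slc2a1* turned to -0.21 with thinned cells and ranged from -0.0683 to 0.354 with a library left out, *Pgk1* from -0.296 to 0.260 and *Eno1* from -0.0284 to 0.224. Library size only also turned *Pgam1* and *Pkm* against goblet-like cells to -0.74 and -0.93, *Aldoa* against TA-like, *Lgr5*-positive and stem-like cells to -1.10, -0.80 and -0.98, *Pkm* against *Lgr5*-positive cells to -1.24, *Slc2a1* against stem-like cells to -1.06, and the differences of genotype effects of *Pgam1*, *Pkm* and *Ldha* against goblet-like cells to 0.34, 0.31 and 0.35 and of *Ldha* against TA-like cells to 0.55. Its counts were 0 higher in each comparison of classes, 10 lower against TA-like, stem-like and *Lgr5*-positive cells, 10 higher and 0 lower for both differences of effects, and 1 lower in stem-like cells by genotype.

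Counts of members also moved by over 1.5 times elsewhere. With DESeq2 they were 1 higher and 0 lower by genotype in goblet-like, 0 and 2 in TA-like, 0 higher in enterocyte-like and stem-like cells, 0 lower against *Lgr5*-positive cells, 1 higher against stem-like cells, and 1 lower (goblet-like) and 2 higher and 0 lower (TA-like) for differences of effects. With thinned cells they were 2 lower in TA-like, 0 higher and 1 lower in enterocyte-like and 0 higher in stem-like cells, 1 higher and 0 lower against *Lgr5*-positive cells, and 3 higher and 0 lower for the difference against TA-like cells. With no filter, enterocyte-like and stem-like cells had 1 lower and *Lgr5*-positive cells 0 lower. One lower UMI limit gave 1 higher in goblet-like, 1 lower in enterocyte-like and stem-like cells, and 1 and 0 lower for the differences against goblet-like and TA-like cells. Clustering at resolution 0.5 gave 0 and 0 in goblet-like, 2 lower in TA-like cells, and 5 higher (goblet-like) and 2 lower (TA-like) for differences. Clustering on all variable genes gave 2 lower in TA-like, 1 lower in enterocyte-like cells, 0 lower against *Lgr5*-positive cells and 2 lower for the difference against TA-like cells. The call against *Lgr5*-positive cells was lost (0 lower) with doublets left out, with a Paneth limit of 20% and with no library block, which also gave 2 lower against TA-like cells; doublets left out gave 0 higher in stem-like cells, at least 10 counts in every sum 1 higher against stem-like cells, and *Defa* genes by file symbols 1 higher in goblet-like cells. With the Paneth class widened by clusters with Paneth markers and the cells at 20% to 30%, counts were 1 higher against goblet-like cells, 0 lower against *Lgr5*-positive cells and 2 higher for the difference against goblet-like cells. The cause of these moves was not tested.

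With each library left out, counts of higher and lower members ranged from 2 to 4 and 3 to 3 by genotype in Paneth, 1 to 3 and 0 to 1 in goblet-like, 1 to 1 and 2 to 4 in TA-like, and 0 to 1 both ways in enterocyte-like and stem-like cells. They ranged from 1 to 2 and 7 to 7 against goblet-like, 1 to 2 and 5 to 5 against TA-like, 2 to 2 and 0 to 1 against *Lgr5*-positive and 1 to 2 and 3 to 3 against stem-like cells, and for differences of effects from 1 to 1 and 2 to 3 (goblet-like) and 3 to 5 and 0 to 1 (TA-like). The share of UMIs taken by the members in Paneth cells, IEC-KO minus fl/fl, was 0.0255 percentage points, 0.0285 outside *Defa* genes, 0.0303 and 0.0209 with limits of 20% and 40%, and 0.0241 to 0.0268 with a library left out.

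The correlation of deviations of same-numbered libraries was 0.03 in Paneth, 0.03 in goblet-like, 0.00743 in TA-like and -0.02 in enterocyte-like cells, so the replicate block rests on a shared number only. With the replicate block, 2 members were higher and 3 lower in Paneth cells, the numbers in the other classes stayed as they were, and in stem-like cells 1 became lower. With clustering on all variable genes the goblet-like class, and with either other clustering the stem-like class, had fewer than 10 cells in a library, so those comparisons have no value. Depth limits the smaller classes: *Slc2a1* had 56 and 59 UMIs in all stem-like and enterocyte-like cells.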

Other observations

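Genes that low oxygen is known to raise outside glycolysis moved in both directions in Paneth cells. Of 11 of 12 listed genes that could be tested, 4 were higher and 2 lower in the IEC-KO libraries. Of all genes, 42.1% were called (21.2% higher, 21.0% lower). The largest rise was that of *Vegfa*, the angiogenic growth factor, from 1.5 ± 0.19 to 5.94 ± 0.42 CPM (SD, n = 2, log2 fold change 2.00, SE 0.12, edgeR adjusted p = 1.22e-09), and the largest fall that of *Car9*, a carbonic anhydrase, from 3.22 ± 0.25 to 1.68 ± 0.15 CPM (-0.93, SE 0.13, edgeR adjusted p = 2.94e-05). In goblet-like cells 3 of 9 were higher and 0 lower, beside 19.2% of all genes called (10.1% higher, 9.07% lower). In TA-like cells 1 of 7 was higher and 1 lower, beside 9.93% (5.40% higher, 4.53% lower). In stem-like cells 1 of 5, *Ndrg1*, was higher (log2 fold change 0.81, SE 0.17, edgeR adjusted p = 0.00337), beside 1.79% (1.25% higher, 0.543% lower). In enterocyte-like cells none of 8 passed in edgeR, where 2 had an unadjusted p below 0.05.

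Some differences between libraries of 1 genotype recurred in every class. *Hk2* was 1.41 to 1.74 times higher in IEC-KO replicate 2 than in replicate 1 in the 5 classes, and 1.02 to 1.2 times higher in fl/fl replicate 1 than in replicate 2. *Pgk1* was 1.41 to 2.99 times higher in fl/fl replicate 1 than in replicate 2 in the same classes. For *Aldoa*, *Gapdh*, *Pgam1* and *Ldha* no such ratio left the range of 0.886 to 1.06.

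The IEC-KO Paneth cells with a UMI of *Try5*, a trypsin gene, after thinning to 3500 UMIs per cell numbered 334 and 376, whereas *Try5* had 3 and 2 UMIs in all fl/fl Paneth cells before thinning. In CPM of the UMIs outside *Defa* genes, *Hk2* was at 88.0 and 125 in these cells and at 76.1 and 121 in the other IEC-KO Paneth cells, and *Ldha* at 327 and 318 against 308 and 318.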
